A study of Homo sapiens and Mus musculus with 99 samples.

Results

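IL24 (interleukin 24) and its neighbours IL20, IL19 and IL10 form a cluster of related cytokine genes on chromosome 1, and their RNA was followed here through every group of a study of pore-forming proteins of the mould Alternaria alternata. The genes were taken by symbol in 6 human tables and by gene ID in 7 mouse tables, 4 of 57820 human genes and 4 of 55401 mouse genes. Il24 was chosen by its fold change against the mock control, which was among the largest in the mouse lung tables, so its levels are given below as a description with no test.

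The human data came from the lung cancer lines NCI-H1437 and NCI-H292, harvested after 4 hours, in 4 and 2 separate sets. In each set the mock control was DPBS (buffered saline). H1437 set 1 held DPBS, A. alternata extract (ALT) and ALT with Tra, which the labels place in a table named for a MEK inhibitor. H1437 set 2 held DPBS, the pore-forming protein Aeg-S, its partner Aeg-L, both together (Aeg-S/L) and Aeg-S/L with Tra. H1437 set 3 and H292 set 2 held DPBS, Aeg-S/L, and Aeg-S/L with the calcium chelator BAPTA-AM or EGTA. Columns of H292 set 2 name BAPTA only, and its table is named for the extract while the sample labels give Aeg-S/L, which was followed here. H1437 set 4 and H292 set 1 held DPBS, wild-type extract (WT ALT) and extracts labelled aegs KO and aegl KO. The lines were compared only through their own sets, so a line cannot be told apart from the experiment that used it.

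The mouse data came from lung epithelial cells isolated 6 hours after intranasal dosing. Mouse set 1 held DPBS and ALT, mouse set 2 DPBS, Aeg-S, Aeg-L and Aeg-S/L, and mouse set 3 DPBS, WT ALT, aegs KO ALT and aegl KO ALT. For these 3 sets the labels gave no genotype. Mouse set 4, labelled WT, held DPBS and the proteins Lysenin, PlyA2EryB and LSL, which the series lists as pore-forming proteins. IL-33 KO set 1 held DPBS, ALT and Aeg-S/L in mice without IL-33, an alarmin released by damaged epithelium. IL-33 KO set 2 held DPBS, Lysenin, PlyA2EryB and LSL in the same genotype. The last set held DPBS and Aeg-S/L in Rag2-/-; gc-/- mice, a genotype that lacks lymphocytes, innate lymphoid cells included. Neither knockout genotype had wild-type mice in its own set, and ages and strains were not given. The labels do not say how the mouse epithelial cells were purified.

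There were 51 human libraries in 24 groups and 48 mouse libraries in 23 groups, with 2 or 3 libraries a group and 29.6 to 66.3 M counts a library. The adjusted p-values below set each group difference against the spread between libraries, estimated over all groups of a set. Epithelial markers were high in every human library, with 5 of 5 above 1 CPM (counts-per-million) and summed levels of 2581 to 3836 CPM. Summed leukocyte markers (14 genes) ranged from 199 to 774 CPM in H1437 and from 81.1 to 154 CPM in H292. At most 4 of the 14 were above 1 CPM. PTPRC (CD45), 1 of the 14, stayed at or below 0.215 CPM and does not stand for the list. Summed fibroblast markers (3 genes, at most 1 above 1 CPM) ranged from 62.1 to 190 CPM in H1437 and from 25.0 to 41.1 CPM in H292. The endothelial marker CDH5 ranged from 1.95 to 8.40 CPM in H1437 and from 56.2 to 68.5 CPM in H292, and PECAM1 was not found by name. Mouse genes other than the 4 members carried IDs without names, so the labelled epithelial identity was not checked in mouse. Replicates stood furthest apart in H1437 set 1, where DPBS replicates 1 and 3 differed by a median of 0.563 on the log2 scale per gene against 0.125 for the typical human pair, and in mouse set 3, where the DPBS pair differed by 0.451 against 0.149.

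IL-10 is the founding member of the family and limits inflammation by acting on immune cells through a receptor built from IL10RA and IL10RB. IL-19, IL-20 and IL-24 are instead known for signals from leukocytes and stressed epithelium back to epithelial cells. All of them use the IL20RA-IL20RB receptor, and IL-20 and IL-24 can also use IL22RA1 paired with IL20RB. Receptor binding activates JAK kinases and STAT3, which induces the feedback inhibitor SOCS3. In skin these cytokines drive keratinocyte growth, antimicrobial proteins and repair.

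In the human tables (build hg19) the cluster covered 136.5 kb of chromosome 1, from 206940947 to 207077484. IL10 (ENSG00000136634.5) lay at chr1:206940947-206945839 on the minus strand. IL19 (ENSG00000142224.11, chr1:206972215-207016324), IL20 (ENSG00000162891.6, chr1:207038699-207042568) and IL24 (ENSG00000162892.11, chr1:207070788-207077484) followed on the plus strand. FCMR, on the minus strand, began at 207077731, just past the end of IL24. The library kit does not mark strand, so reads from overlapping transcripts of such neighbours could not be told apart. In the mouse tables (build mm10) the order was kept in reverse over 142.9 kb: Il24 (ENSMUSG00000026420.16, chr1:130882074-130887454), Il20 (ENSMUSG00000026416.12, chr1:130906985-130911451), Il19 (ENSMUSG00000016524.12, chr1:130932656-130940115) and Il10 (ENSMUSG00000016529.5, chr1:131019845-131024974).

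Start-site windows of the human genes are shown because IL24 and IL20 moved together in these cells while IL19 and IL10 did not reach comparable levels. They come from RefSeq on build GRCh38.p14, which is not the build of the count tables, and run from 250 bases before to 50 bases after an annotated start. IL24 had 1 such window, IL20 and IL19 had 2 each and IL10 had 3. The IL24 window is chr1:206897193-206897492, the IL20 windows are chr1:206863315-206863614 and chr1:206865373-206865672, and the IL19 window is chr1:206770523-206770822, all on the plus strand. Capitals mark a match to a searched motif.
IL24: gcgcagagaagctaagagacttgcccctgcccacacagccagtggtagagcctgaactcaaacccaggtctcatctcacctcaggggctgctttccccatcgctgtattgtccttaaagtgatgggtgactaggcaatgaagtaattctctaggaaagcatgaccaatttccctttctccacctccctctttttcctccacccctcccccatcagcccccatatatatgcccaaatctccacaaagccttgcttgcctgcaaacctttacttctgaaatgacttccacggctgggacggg
IL20, first window: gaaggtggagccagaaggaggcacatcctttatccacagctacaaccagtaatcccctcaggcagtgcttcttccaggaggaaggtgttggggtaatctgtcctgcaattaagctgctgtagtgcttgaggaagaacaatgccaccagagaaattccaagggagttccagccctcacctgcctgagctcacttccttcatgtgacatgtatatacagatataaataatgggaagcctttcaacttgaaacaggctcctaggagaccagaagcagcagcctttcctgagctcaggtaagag
IL20, second window: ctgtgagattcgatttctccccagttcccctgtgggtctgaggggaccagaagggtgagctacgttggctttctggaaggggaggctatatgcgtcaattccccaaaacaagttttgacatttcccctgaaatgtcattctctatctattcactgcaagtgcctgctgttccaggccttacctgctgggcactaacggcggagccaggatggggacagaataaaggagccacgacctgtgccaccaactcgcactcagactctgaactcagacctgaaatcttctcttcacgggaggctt
IL19: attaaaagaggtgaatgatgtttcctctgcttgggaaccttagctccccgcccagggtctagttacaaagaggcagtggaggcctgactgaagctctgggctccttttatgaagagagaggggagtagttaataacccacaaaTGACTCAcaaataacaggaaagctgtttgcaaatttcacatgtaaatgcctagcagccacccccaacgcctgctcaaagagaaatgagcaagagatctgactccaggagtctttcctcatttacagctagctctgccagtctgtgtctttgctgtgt

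A search of both strands for the AP-1 motif TGANTCA, the STAT motif TTCNNNGAA, the cyclic AMP response motif TGACGTCA and the kB-type motif (GGG, any 5 bases, CC) found no match in the IL24 window or in either IL20 window. The printed IL19 window held TGACTCA, an AP-1 match, at positions -107 to -101 from the start. An IL10 window that overlaps it on the other strand held the same site, at -69 to -63 from its own start. The other IL19 window held a STAT match and 2 kB-type matches. Of 34943 RefSeq promoter windows, 7.72% held the AP-1 motif, 7.66% the STAT motif, 1.84% the cyclic AMP motif and 58.6% the kB-type motif. These are matches of letters in short windows, not measured binding.

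In mouse lung epithelial cells Il24 RNA was close to absent under mock treatment and present after every stimulus other than Aeg-S alone, Aeg-L alone and the knockout extracts, in mice with and without IL-33 and in Rag2-/-; gc-/- mice. In mouse set 1 the ALT libraries held 116, 127 and 90 Il24 counts and the DPBS libraries held 0, 0 and 2. That was 3.50 ± 0.600 CPM (SD, n = 3) against 0.0207 CPM in the mean over libraries. Summed counts over summed depth gave a ratio of 184 with a 95% exact counting interval of 50.4 to 1522. Each ratio below that carries such an interval is made from summed counts, and the others from mean CPM. The intervals pool the libraries of a group and cover counting error only, not the spread between libraries. For Il24, chosen for its fold, they are no test. In this comparison 58.6% of all tested genes were called, a call being an adjusted p under 0.05 in edgeR's quasi-likelihood test with Benjamini-Hochberg adjustment. In bulk RNA, a change in the number of cells that express a gene and a change of its RNA per cell cannot be told apart.

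In mouse set 2 Il24 was high where both proteins were given and near 0 with either alone. The Aeg-S/L libraries held 624 and 517 counts, or 17.3 ± 1.96 CPM (SD, n = 2), the highest level of any mouse group. Aeg-S alone gave 2 and 0 counts, Aeg-L alone 2 and 0, and DPBS 0 and 0. A group at 0 is set at a floor of 3 counts over the group, and on that basis Aeg-S/L was at least 385-fold higher than DPBS. It was 591-fold higher than Aeg-S (95% counting interval 163 to 4884) and 625-fold higher than Aeg-L (173 to 5168). Of all genes, 38.8% were called for Aeg-S/L against DPBS. For each protein alone the share was 0.0, with 1178 genes at an unadjusted p under 0.05 for Aeg-S and 599 for Aeg-L, and DESeq2 called 18 and 2.

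With extracts labelled as knockouts of either protein, Il24 lay at the level of DPBS. In mouse set 3, WT ALT gave 127 and 171 counts (4.74 ± 0.634 CPM, SD, n = 2) against 5 and 1 in DPBS, a 55.4-fold difference. Extract labelled aegs KO gave 1 and 0 counts and extract labelled aegl KO gave 0 and 1. Set against WT ALT these were 318-fold lower (95% counting interval 56.7 to 12617) and 337-fold lower (60.1 to 13363). No library of either knockout extract exceeded the highest DPBS library. Of all genes, 34.2% were called for WT ALT against DPBS, and 28.8% and 27.8% for the aegs KO and aegl KO extracts against WT ALT. The knockout extracts against DPBS gave 0.0% each, with 1063 and 979 genes at an unadjusted p under 0.05, and DESeq2 called 10 and 22. The WT ALT fold depends on the DPBS libraries: on the log2 scale it was 5.79 with both, 7.52 without the one with 5 counts and 5.03 without the one with 1.

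Pore-forming proteins from other organisms gave Il24 levels of the same order. In mouse set 4 the DPBS libraries held 9 and 0 counts. Lysenin, a pore former of earthworms, gave 232 and 320 counts (5.59 ± 0.214 CPM), PlyA2EryB gave 414 and 437 (8.57 ± 0.327 CPM) and LSL gave 280 and 403 (7.17 ± 0.503 CPM; SD, n = 2 each). These were 66.7-, 102- and 85.6-fold above DPBS, and the shares of all genes called were 63.6%, 64.7% and 65.8%. The folds rest on the first DPBS library, which held all 9 counts of its group; without it the log2 differences moved from 6.06, 6.68 and 6.42 to 6.51, 7.13 and 6.87, with the remaining DPBS library at the floor. Without the second DPBS library, which held 0, they moved further, to 5.06, 5.68 and 5.42.

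Il24 was also present in both knockout genotypes. In IL-33 KO set 1 DPBS gave 0 and 0 counts, ALT 274 and 112, and Aeg-S/L 454 and 391. ALT stood at 5.60 ± 3.42 CPM and Aeg-S/L at 7.40 ± 0.167 CPM (SD, n = 2 each), at least 158- and 209-fold above DPBS, where 2.92% and 10.9% of all genes were called. In IL-33 KO set 2 DPBS again gave 0 and 0 counts, Lysenin 166 and 118, PlyA2EryB 282 and 266, and LSL 121 and 115. Their levels were 3.54 ± 0.596, 5.10 ± 0.315 and 2.56 ± 0.174 CPM, at least 111-, 160- and 80.5-fold above DPBS, with 39.7%, 50.3% and 37.4% of all genes called. In Rag2-/-; gc-/- mice Aeg-S/L gave 545 and 458 counts (8.55 ± 0.470 CPM, SD, n = 2) against 0 and 0, at least 317-fold, with 68.1% called. The genotypes were processed in different sets, so genotype and experiment cannot be told apart, and the levels are given side by side only.

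**Figure D1:**
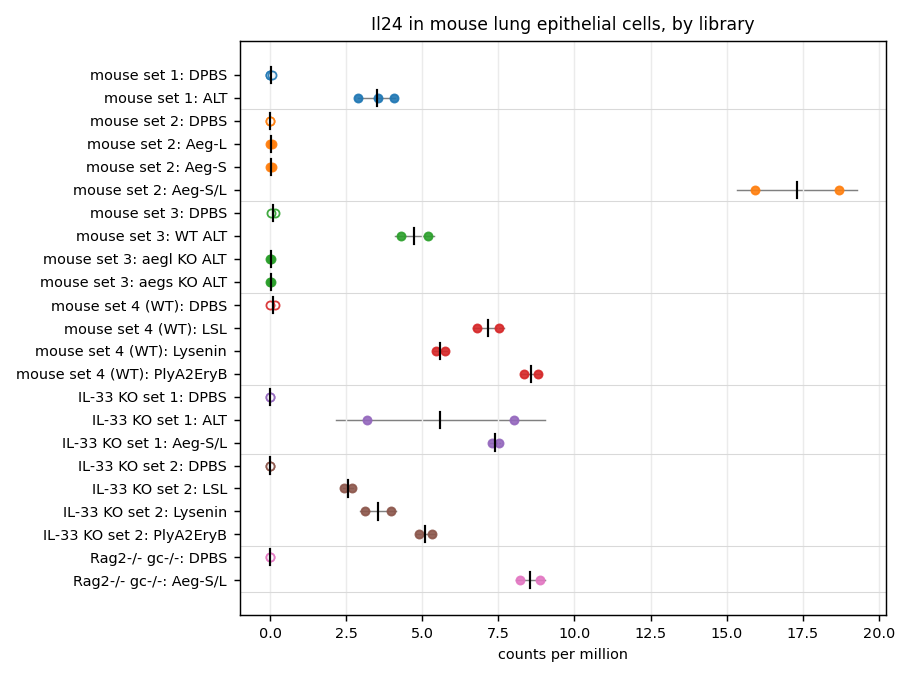
Il24 level in each mouse library, in CPM on a linear axis; points are libraries (open for DPBS), the vertical bar is the group mean and the grey line its SD. The Aeg-S/L libraries of mouse set 2 lie highest (mean 17.3 CPM), Aeg-S, Aeg-L and both knockout extracts lie with DPBS, and every other stimulus lies above its DPBS.

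Ordered by level, the Aeg-S/L group of mouse set 2 stood apart from the rest. It was followed by PlyA2EryB in mouse set 4 and Aeg-S/L in Rag2-/-; gc-/- mice, whose libraries overlapped each other. The next step down held Aeg-S/L in IL-33 KO mice, LSL in mouse set 4, ALT in IL-33 KO mice and Lysenin in mouse set 4. Then came PlyA2EryB in IL-33 KO mice (5.10 CPM) with WT ALT in mouse set 3 (4.74 CPM). Lysenin in IL-33 KO mice (3.54 CPM) and ALT in mouse set 1 (3.50 CPM) followed. The stimulated group with the lowest level was LSL in IL-33 KO mice at 2.56 CPM. The ranges of neighbours in this order overlapped within each step, and the order crosses tables that were counted separately. The steps are not clear-cut, as the ALT libraries of IL-33 KO mice (3.18 and 8.01 CPM) spanned the levels from 5.10 to 3.50 CPM.

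Il10 rose beside Il24 in most mouse sets, from a different starting level. In mouse set 1 the ALT libraries held 353, 686 and 440 Il10 counts against 10, 30 and 39 in DPBS. The groups did not overlap: 15.6 ± 5.78 CPM against 0.780 ± 0.479 CPM (SD, n = 3 each), a 20-fold difference with a log2 fold change of 4.41 ± 0.40 (SE; adjusted p = 1.35e-06). Per kb of transcript, which allows genes to be compared, the mean level under ALT was 11.9 CPM for Il10 and 2.53 CPM for Il24.

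In mouse set 2 Il10 gave 352 and 494 counts with Aeg-S/L, 33 and 8 with Aeg-S, 33 and 58 with Aeg-L, and 16 and 32 in DPBS. Aeg-S/L stood at 12.9 ± 3.30 CPM (SD, n = 2), 17.9-fold above DPBS (log2 4.30 ± 0.58, adjusted p = 0.000998). The single proteins did not reach a call, with log2 differences of -0.19 for Aeg-S and 0.83 for Aeg-L. Against the single proteins, Aeg-S/L was higher by 4.49 and 3.47 on the log2 scale, both called, where 39.3% and 38.6% of all genes were called. In mouse set 3 WT ALT gave 409 and 709 counts against 23 and 20 in DPBS, 17.7 ± 5.44 CPM (SD, n = 2), a 29.8-fold rise (log2 4.89 ± 0.36, adjusted p = 6.85e-05). The aegs KO extract gave 47 and 33 counts and the aegl KO extract 44 and 53. Against WT ALT, Il10 fell by 3.91 ± 0.33 and 3.71 ± 0.33 on the log2 scale (adjusted p = 0.000147 and 0.000191). Both knockout extracts remained nominally above DPBS, by 0.98 and 1.18, without a call. Without the first DPBS library the second of these passed (adjusted p = 0.0459).

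Mock-treated mice differed in Il10 between sets. DPBS means were 0.592 to 0.780 CPM in mouse sets 1 to 3, whereas 7 of the 8 DPBS libraries of mouse set 4, both IL-33 KO sets and the Rag2-/-; gc-/- set held 0 Il10 counts and the eighth held 5. In mouse set 4 Lysenin gave 11 and 18 counts, PlyA2EryB 21 and 10 and LSL 28 and 40. These were at least 9.89-, 10.7- and 24.5-fold above DPBS (adjusted p = 0.000151, 0.000102 and 3.39e-06). With DPBS at 0, Il10 passed the low-count filter in that set only through the stimulated libraries, so these calls add nothing beyond the counts. LSL had the highest of these levels at 0.714 CPM, which is still within the range of the DPBS means of the first 3 sets.

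Il10 rose in IL-33 KO set 2 as well. Lysenin gave 4 and 4 counts, PlyA2EryB 10 and 5 and LSL 26 and 20 against 0 and 0. These were at least 3.15-, 4.29- and 15.7-fold higher (adjusted p = 0.0209, 0.00746 and 0.00174). Here too Il10 passed the low-count filter only through stimulated libraries, so the calls add nothing beyond the counts. The Lysenin call was lost when any 1 library was left out (adjusted p 0.0518 to 0.0794). In IL-33 KO set 1 DPBS gave 0 and 5 counts, ALT 12 and 2 and Aeg-S/L 17 and 13, and neither comparison was called (log2 1.76 ± 1.35, adjusted p = 0.468, and 2.14 ± 1.29, adjusted p = 0.288). In Rag2-/-; gc-/- mice Aeg-S/L gave 10 and 7 counts against 0 and 0, at least 5.32-fold, and the gene did not pass the low-count filter, so it was not tested. The contrast with Il24, which held 545 and 458 counts in those same 2 libraries, is one of level only.

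Il19 and Il20 were detected at low counts and mainly in the Aeg-S/L libraries. Il19 gave 63 and 56 counts with Aeg-S/L in mouse set 2 (1.81 CPM), against 0 and 0 in DPBS and with Aeg-L, and 2 and 0 with Aeg-S. It was at least 40.2-fold above DPBS (adjusted p = 0.00381) and 61.6-fold above Aeg-S (95% counting interval 16.7 to 515, adjusted p = 0.00604). In mouse set 3 WT ALT gave 10 and 11 Il19 counts against 0 and 0, at least 8.19-fold, without a call (adjusted p = 0.0853). The aegl KO extract gave 0 and 0, but the aegs KO extract gave 15 and 0, with 1 library above both WT ALT libraries. Against WT ALT, aegs KO differed by -0.61 ± 1.46 on the log2 scale, not called (adjusted p = 0.794). In Rag2-/-; gc-/- mice Il19 gave 14 and 8 counts with Aeg-S/L against 1 and 0, a ratio of 20.8 (3.36 to 857) that was not tested. Elsewhere no library held over 8 Il19 counts.

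Il20 was at 0 in 41 of 48 mouse libraries. It gave 11 and 23 counts with Aeg-S/L in mouse set 2, at least 11.6-fold above DPBS (adjusted p = 0.023). The call was lost without the first Aeg-S/L library or either DPBS library. In that set Il19 and Il20 passed the low-count filter only through the Aeg-S/L libraries, so their calls add nothing beyond the counts. Il20 gave 4, 2 and 2 counts with ALT in mouse set 1 and 3 and 6 with Aeg-S/L in Rag2-/-; gc-/- mice, against 0 in their controls. Per kb, the 4 genes in the Aeg-S/L libraries of mouse set 2 stood in the order Il24 (12.5 CPM), Il10 (9.83 CPM), Il19 (1.57 CPM) and Il20 (0.438 CPM).

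**Figure D2:**
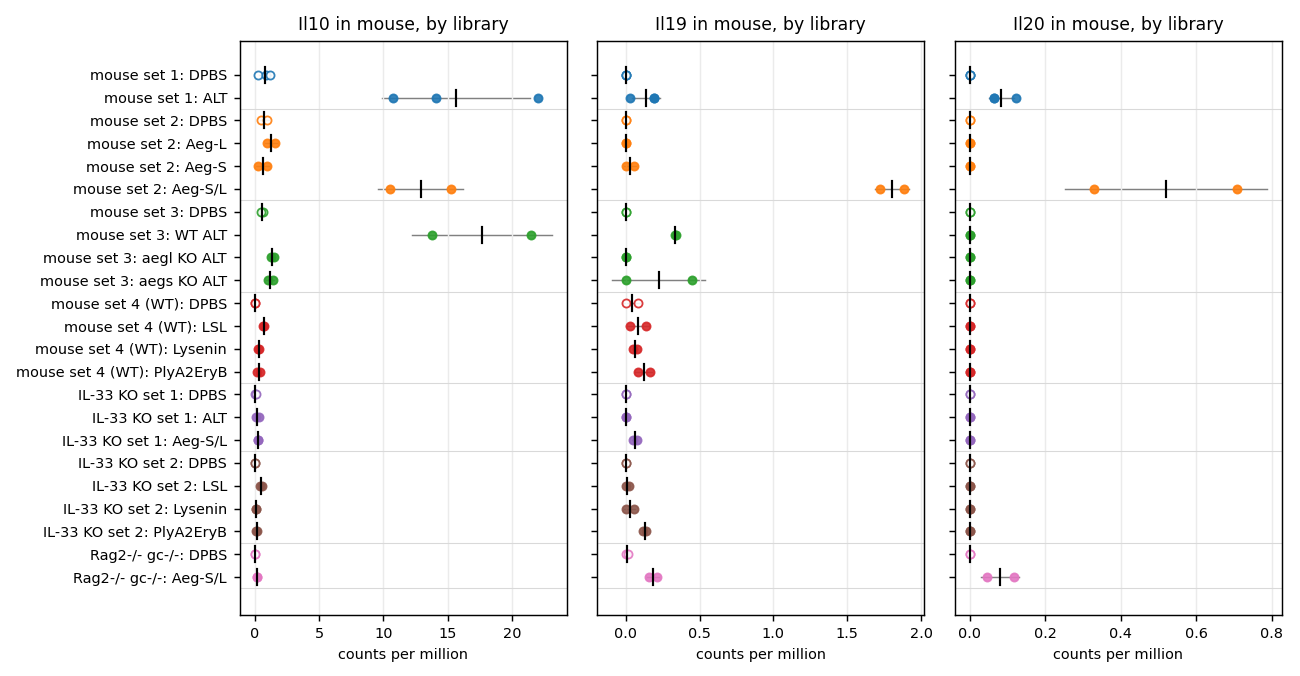
Levels of Il10, Il19 and Il20 in each mouse library, in CPM on linear axes that differ between panels; points are libraries (open for DPBS), bars are group means and grey lines SDs. Il10 is highest with ALT and Aeg-S/L in mouse sets 1 to 3 (12.9 to 17.7 CPM), while Il19 and Il20 stand out with Aeg-S/L in mouse set 2.

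In human airway lines the 4 genes split into a detected and a nearly silent pair. IL24 was counted in all 51 human libraries and passed the low-count filter in 6 of 6 sets, as did IL20, which was at 0 in 16 libraries. IL19 was at 0 in 41 libraries and passed in 1 set, and IL10 had 2 counts in all 51 libraries together. Il10, which had the highest mouse counts after Il24, was thus close to undetected in its human form at this depth. IL20, nearly absent in mouse, had the largest human folds. These contrasts set cells isolated from dosed lungs at 6 hours beside cancer lines at 4 hours. Species therefore cannot be told apart from system, time or the mix of cells.

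IL24 differed between the lines before any stimulus. DPBS means were 0.225 to 0.556 CPM in the 4 H1437 sets and 53.8 and 58.7 CPM in the H292 sets. These levels come from tables counted separately and carry no test. IL20 in DPBS was 0.009 to 0.088 CPM in H1437 and 0.660 and 0.674 CPM in H292. Per kb within the H292 set 2 DPBS libraries, IL24 stood at 27.2 CPM and IL20 at 0.430 CPM.

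IL24 rose with Aeg-S and Aeg-L together in both lines. In H1437 set 2 the Aeg-S/L libraries held 59 and 66 IL24 counts, Aeg-S 17 and 18, Aeg-L 18 and 15, and DPBS 22 and 18. Both Aeg-S/L libraries lay above all others, and the log2 fold change against DPBS was 1.81 ± 0.48 (SE; adjusted p = 0.0444), where 6.72% of all genes were called. Against Aeg-S it was 1.97 (adjusted p = 0.013; 29.7% of genes called) and against Aeg-L 2.07 (adjusted p = 0.0304; 5.41% called). The single proteins gave 0.0% called genes, with 1491 genes at an unadjusted p under 0.05 for Aeg-S and 186 for Aeg-L, and DESeq2 called 0 for each. The rise against DPBS was not called once any 1 of its 4 libraries was left out (adjusted p 0.195 to 0.339). The call against Aeg-S was lost without Aeg-S replicate 2 or either Aeg-S/L library (adjusted p 0.0546 to 0.0879), and that against Aeg-L without Aeg-L replicate 1 or either Aeg-S/L library (adjusted p 0.125 to 0.207).

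In H1437 set 3 Aeg-S/L gave 55 and 62 IL24 counts against 19 and 12 in DPBS (log2 1.93 ± 0.46, adjusted p = 0.00408; 31.2% of genes called), and this call held with each library left out. In H292 set 2 Aeg-S/L gave 5922 and 6133 counts against 1850 and 1761. That was 171 ± 5.10 CPM (SD, n = 2), the highest human level of any member, with a log2 fold change of 1.83 ± 0.09 (adjusted p = 1.79e-12; 43.2% called). The change was of similar size in both lines: fitted together, H292 minus H1437 was -0.09 ± 0.28 on the log2 scale (adjusted p = 0.919), in a comparison where 14.3% of genes were called. That interval does not show that the lines respond alike, and the sign turned when either H1437 set 3 library numbered 2 of the Aeg-S/L or DPBS group was left out (0.02 and 0.24).

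The wild-type extract gave a larger relative rise in H1437. H1437 set 4 held 85 and 107 IL24 counts with WT ALT against 19 and 15 in DPBS (2.83 CPM, log2 2.93 ± 0.45, adjusted p = 9.76e-05; 32.8% called). H292 set 1 held 3242 and 3448 counts against 2522 and 1826 (94.5 ± 3.44 CPM, SD, n = 2), a log2 fold change of 0.80 ± 0.14 (adjusted p = 0.00295; 22.9% called). The rise in H292 was smaller than in H1437 by -2.15 ± 0.29 (adjusted p = 0.000158), where 8.9% of genes were called. In H1437 set 1, a separate experiment with ALT, counts were 13, 32 and 35 against 15, 5 and 5 in DPBS. The groups overlapped and the difference was not called (log2 1.76 ± 0.68, adjusted p = 0.200; 4.71% of genes called). Without DPBS replicate 1, the library with 15 counts and the one furthest from its group, it was 2.53 (adjusted p = 0.0834).

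IL20 had larger folds than IL24 in every set. In every H1437 set IL20 passed the low-count filter only through stimulated libraries. Its calls within those sets, against DPBS or any other group, therefore add nothing beyond the counts. In H1437 set 1 ALT gave 31, 43 and 65 IL20 counts against 0, 0 and 1, a ratio of 142 (95% counting interval 25.0 to 5632; adjusted p = 0.00273). In H1437 set 2 Aeg-S/L gave 294 and 253 counts against 0 and 6 in DPBS, 8.0 ± 0.957 CPM (SD, n = 2) and 99.1-fold (log2 6.64 ± 0.80, adjusted p = 0.000774). All libraries with Aeg-S or Aeg-L alone were at 0, so Aeg-S/L was at least 199- and 193-fold above them. DESeq2 gave the rise against DPBS a similar log2 value, 6.72, but no call (adjusted p = 0.285). In H1437 set 3 the Aeg-S/L libraries stood at 8.09 and 6.60 CPM against 2 and 4 counts in DPBS, 83.5-fold (log2 6.42 ± 0.43, adjusted p = 2.11e-08). In H1437 set 4 WT ALT gave 170 and 138 against 4 and 2, 67.1-fold (log2 6.05 ± 0.68, adjusted p = 6.91e-06).

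H292 started from a higher IL20 level and reached the highest one. WT ALT in H292 set 1 gave 505 and 461 counts against 29 and 20 (13.7 ± 0.977 CPM, SD, n = 2), 20.7-fold (log2 4.47 ± 0.29, adjusted p = 2.89e-06). Aeg-S/L in H292 set 2 gave 546 and 640 against 26 and 19 (16.8 ± 0.969 CPM, SD, n = 2), 24.9-fold (log2 4.80 ± 0.28, adjusted p = 4.37e-11). The differences of these rises from those in H1437 were -1.61 ± 0.76 for WT ALT (adjusted p = 0.213) and -1.60 ± 0.64 for Aeg-S/L (adjusted p = 0.101), neither of them called. Per kb, the leading cytokine differed by line: in the Aeg-S/L libraries of H1437 set 3 IL20 stood at 4.69 CPM and IL24 at 0.827 CPM, and in those of H292 set 2 IL24 stood at 86.5 CPM and IL20 at 10.7 CPM.

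**Figure D3:**
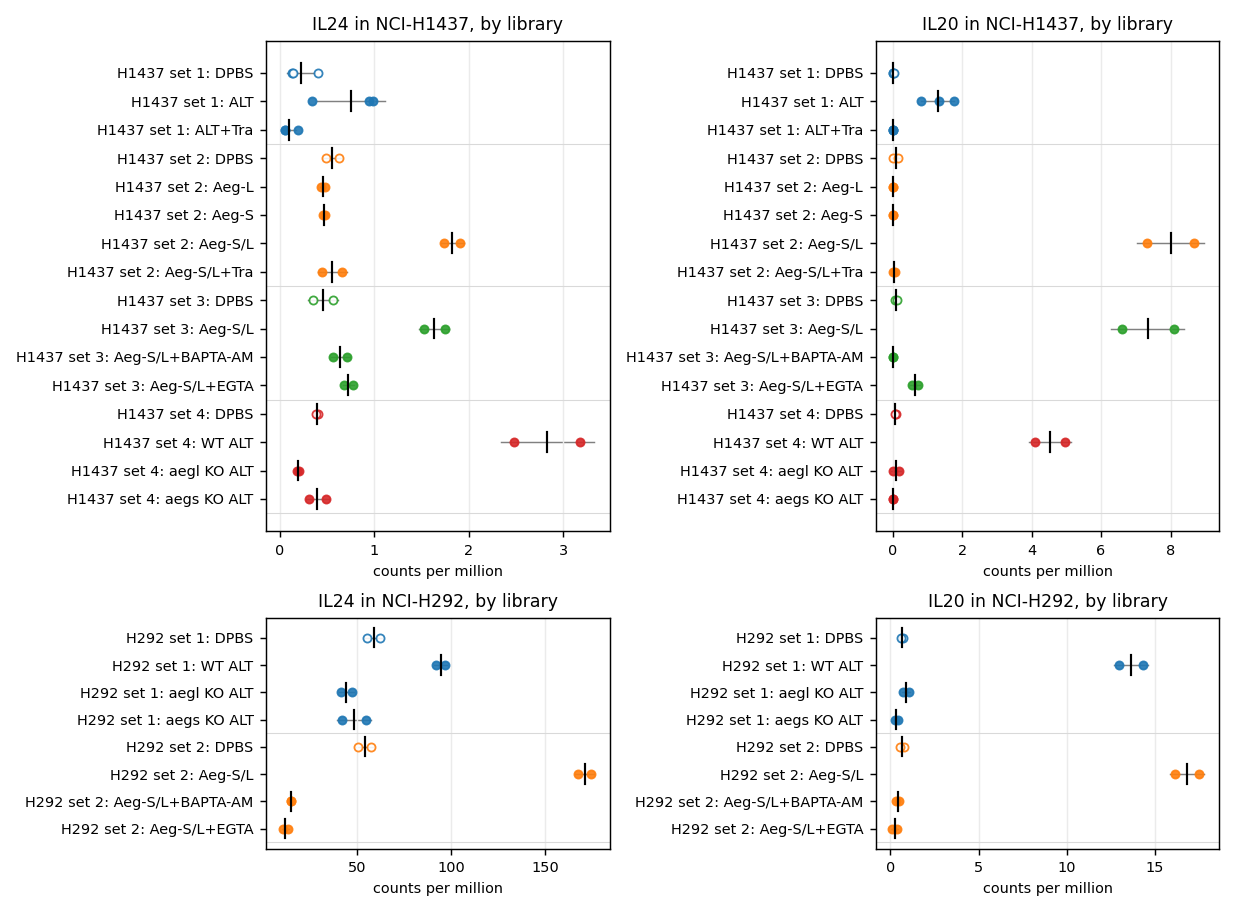
IL24 and IL20 in each human library, in CPM on linear axes that differ between panels, H1437 above and H292 below; points are libraries (open for DPBS), bars are group means and grey lines SDs. IL20 lies near 0 in DPBS and rises with ALT, WT ALT and Aeg-S/L, while IL24 in H292 starts at 53.8 to 58.7 CPM and falls below that level with either chelator.

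With extracts labelled as knockouts of either protein, IL24 and IL20 were not called against DPBS. In H1437 set 4 IL24 counts were 17 and 12 with the aegs KO extract and 8 and 7 with the aegl KO extract, lower than with WT ALT by -2.90 ± 0.45 and -3.93 ± 0.49 on the log2 scale (adjusted p = 0.000138 and 1.68e-05; 29.9% and 30.6% of genes called). Against DPBS the differences were 0.02 and -1.0, not called, where 1.08% and 0.766% of genes were called. In H292 set 1 IL24 counts were 2483 and 1754 with aegs KO and 1370 and 1767 with aegl KO, lower than WT ALT by -1.09 ± 0.14 and -1.20 ± 0.14 (adjusted p = 0.000447 and 0.000308; 26.6% and 19.0% called), and neither differed from DPBS with a call (-0.29 and -0.40; 0.0% and 0.12% of genes called). For aegs KO against DPBS in H292 set 1, 308 genes had an unadjusted p under 0.05, and DESeq2 called 0.

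IL20 gave 0 and 0 counts with the aegs KO extract in H1437 set 4, at least 111-fold below WT ALT (adjusted p = 2.88e-06), and 8 and 0 with the aegl KO extract, 48.9-fold below (log2 -5.52 ± 0.66, adjusted p = 1.42e-05). IL20 passed the low-count filter in that set only through the WT ALT libraries, so these calls add nothing beyond the counts. In H292 set 1 it gave 19 and 11 counts with aegs KO and 35 and 28 with aegl KO, log2 differences from WT ALT of -5.43 ± 0.31 and -4.03 ± 0.28 (adjusted p = 1.1e-06 and 6.28e-06). Neither knockout extract passed against DPBS in either line. In H292 set 1 the log2 differences from DPBS were -0.96 ± 0.35 for aegs KO and 0.44 ± 0.31 for aegl KO. In H1437 set 4 aegl KO differed by 0.53 ± 0.95, and aegs KO held 0 and 0 counts against 4 and 2 in DPBS.

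The MEK inhibitor groups were run in H1437 only. MEK is the kinase that activates ERK, which in turn feeds the AP-1 transcription factors. IL20 gave 0, 0 and 0 counts with ALT+Tra in H1437 set 1, at least 55.1-fold below ALT alone (adjusted p = 0.00196; 5.08% of genes called). It gave 0 and 2 counts with Aeg-S/L+Tra in H1437 set 2, 286-fold below Aeg-S/L (95% counting interval 78.9 to 2371; adjusted p = 0.00113; 1.27% called), a call that DESeq2 did not make (adjusted p = 0.530). In both sets IL20 passed the low-count filter only through the libraries with the stimulus alone, so these calls add nothing beyond the counts. IL24 gave 2, 10 and 2 counts with ALT+Tra and was lower than with ALT by -2.89 ± 0.73 (adjusted p = 0.0463), but this call was lost when any 1 library was left out (adjusted p 0.0643 to 0.193). In H1437 set 1 IL24 passed the low-count filter only with its ALT libraries, so this call adds nothing beyond the counts. With Aeg-S/L+Tra it gave 24 and 16 counts, -1.76 ± 0.48 against Aeg-S/L, not called (adjusted p = 0.137). Against DPBS, IL24 differed by -1.13 ± 0.77 with ALT+Tra and by 0.05 ± 0.50 with Aeg-S/L+Tra (adjusted p = 0.418 and 0.981; 0.283% and 0.495% of genes called). No group received Tra without a stimulus, so the inhibitor's own change is not separated.

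Both genes were lower with Aeg-S/L and a calcium chelator than with Aeg-S/L alone, and the lines differed in how far. EGTA binds calcium outside cells, whereas BAPTA-AM enters cells and binds it there. In H1437 set 3 IL24 gave 20 and 27 counts with BAPTA-AM and 25 and 25 with EGTA, lower than Aeg-S/L alone by -1.47 ± 0.44 and -1.25 ± 0.44 (adjusted p = 0.0194 and 0.0399; 27.7% and 30.6% of genes called). Both calls were lost with any 1 library left out, and both groups still lay nominally above DPBS (0.46 and 0.68, not called).

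In H292 set 2 the same additions took IL24 below its unstimulated level. Counts were 509 and 563 with BAPTA-AM (14.6 ± 0.135 CPM) and 347 and 425 with EGTA (11.7 ± 1.94 CPM; SD, n = 2 each), against 1850 and 1761 in DPBS. The differences from Aeg-S/L were -3.74 ± 0.10 and -3.99 ± 0.10 (adjusted p = 1.58e-16 and 1.54e-16; 37.9% and 44.9% of genes called). The differences from DPBS were -1.91 ± 0.10 and -2.16 ± 0.10 (adjusted p = 1.11e-11 and 4e-12; 36.6% and 34.5% called), that is 3.70- and 4.61-fold below. The H292 decrease exceeded that in H1437 by -2.31 ± 0.30 for BAPTA-AM (adjusted p = 1.05e-05) and -2.75 ± 0.30 for EGTA (adjusted p = 6.9e-07), where 11% and 14.4% of genes were called. Neither chelator was given without Aeg-S/L, so its own change of IL24 was not tested. The 2 chelators did not differ from each other with a call (0.25 ± 0.11 in H292, adjusted p = 0.0557, where 46.6% of genes were called; -0.22 in H1437, adjusted p = 0.748). Without EGTA replicate 2 the H292 difference was 0.43 and passed.

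IL20 counts separated the chelators in H1437. In H1437 set 3 IL20 passed the low-count filter only through the libraries with Aeg-S/L alone or with EGTA. Its calls in that set therefore add nothing beyond the counts. With BAPTA-AM it gave 0 and 0 counts, at least 179-fold below Aeg-S/L (adjusted p = 4.06e-09), and with EGTA 24 and 20 counts, 11.4-fold below (log2 -3.60 ± 0.33, adjusted p = 1.05e-06). The EGTA libraries stayed 7.31-fold above DPBS (log2 2.83 ± 0.52, adjusted p = 0.00342; 5.18% of genes called), and BAPTA-AM lay at least 15.7-fold below EGTA (adjusted p = 1.4e-05; 37.7% called). BAPTA-AM against DPBS, 0 and 0 counts against 2 and 4, was called lower (adjusted p = 0.0175; 34.1% called) on 6 counts in all and lost the call without any of 3 libraries (adjusted p up to 0.1). In H292 set 2 IL20 gave 12 and 19 counts with BAPTA-AM and 4 and 12 with EGTA, log2 differences from Aeg-S/L of -5.49 ± 0.29 and -6.22 ± 0.32 (adjusted p = 1.04e-11 and 1.29e-11). The libraries of the 2 chelators overlapped there, and the difference between them was not called (0.72 ± 0.47, adjusted p = 0.225), though without EGTA replicate 2 it was 1.72 and passed (adjusted p = 0.027). Against DPBS these were -0.69 for BAPTA-AM, not called (adjusted p = 0.178), and -1.41 ± 0.44 for EGTA (adjusted p = 0.0175), a call lost without EGTA replicate 1 or DPBS replicate 1. The EGTA decrease was larger in H292 than in H1437 by -2.62 ± 0.52 (adjusted p = 0.00123). The BAPTA-AM decrease was smaller in H292, by 5.55 ± 1.31 (adjusted p = 0.00673), a value that rests on the 0 counts of H1437 and was no longer called without 1 of those libraries (adjusted p = 0.055).

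**Figure D4:**
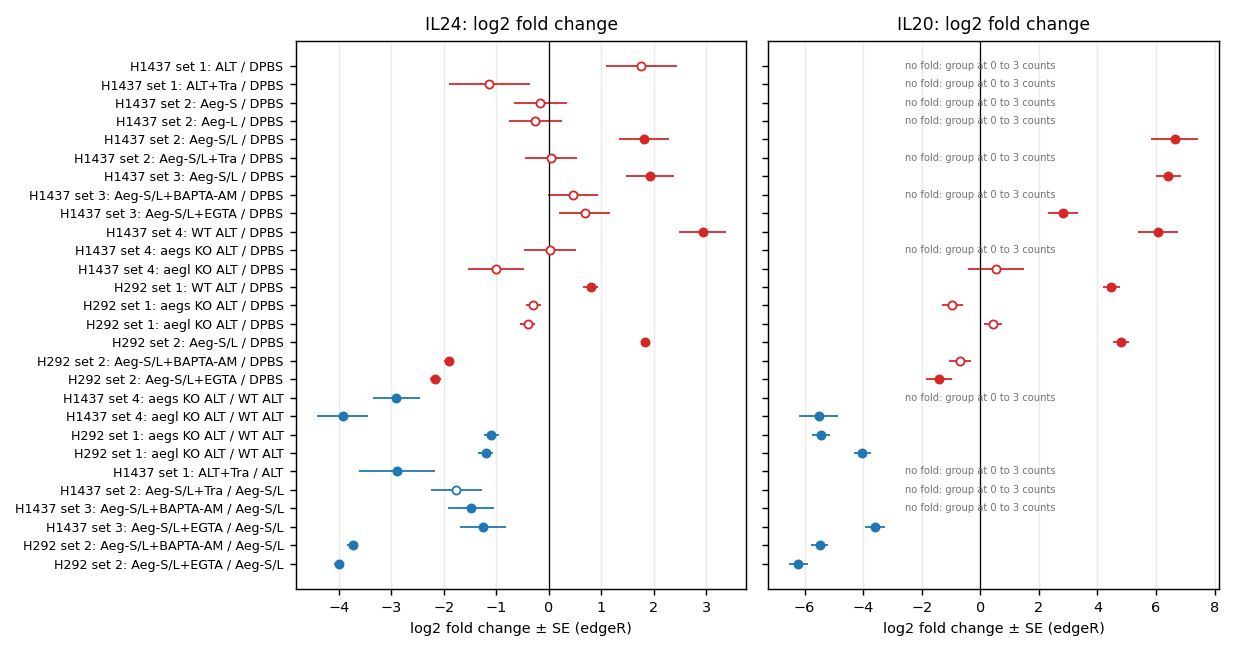
Log2 fold changes of IL24 and IL20 with their standard errors in each human comparison, red against DPBS and blue against the stimulus alone; filled points have an adjusted p under 0.05 in edgeR's quasi-likelihood test, and comparisons with a group of 0 to 3 counts show no point. Stimulus rises of IL24 lie between 0.80 and 2.93, those of IL20 between 4.47 and 6.64, and only in H292 set 2 do chelated IL24 groups lie below DPBS (-1.91 and -2.16).

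IL19 was found mainly in H292, where its counts were highest in DPBS. In H292 set 1 it gave 14 and 19 counts in DPBS, 0 and 0 with WT ALT, 12 and 2 with aegs KO and 0 and 1 with aegl KO. WT ALT was at least 10.9-fold below DPBS (adjusted p = 0.0199), and the call was lost with any 1 library left out. IL19 passed the low-count filter in that set through its DPBS libraries, so this call adds nothing beyond the counts. The aegl KO extract, at a log2 value of -4.72 ± 1.35 against DPBS, was not called (adjusted p = 0.241). In H292 set 2, where IL19 did not pass the filter, DPBS gave 20 and 10 counts, Aeg-S/L 0 and 6, EGTA 0 and 2 and BAPTA-AM 0 and 0. Aeg-S/L was 5.52-fold below DPBS and BAPTA-AM at least 11.1-fold below, without a test. H1437 libraries held 2 IL19 counts in all. IL10 had 2 counts in all, in 1 DPBS library of H292 set 1.

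The receptor chains other than IL10RA were present in both lines, and few changed with a call. IL20RA stood at 16.8 to 22.0 CPM in the DPBS groups of both lines. IL20RB, the chain shared by all the IL-20 type receptors, stood at 0.995 to 1.36 CPM in H1437 and at 17.9 and 18.9 CPM in H292. IL22RA1 stood at 1.47 to 3.63 CPM, IL10RB at 6.19 to 8.78 CPM and IL10RA at or below 0.178 CPM. Of 6 listed chains 4 or 5 were tested in each set. Across the 6 stimulus comparisons the calls were a fall of IL20RA in H1437 sets 3 and 4 (-0.42 ± 0.11 and -0.39 ± 0.11, adjusted p = 0.00697 and 0.00962), a rise of IL22RA1 in H292 set 2 (0.85 ± 0.30, adjusted p = 0.0292) and a rise of IL10RA in H1437 set 3 (2.70 ± 0.94, adjusted p = 0.0394) from under 0.2 CPM. IL20RB and IL10RB were called in none of the 6, in which 4.71%, 6.72%, 31.2%, 32.8%, 22.9% and 43.2% of all genes were called (H1437 sets 1 to 4, then H292 sets 1 and 2). Of the 5 family cytokines outside the cluster (IL22, IL26 and IFNL1 to IFNL3), 0 passed the low-count filter in any set.

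JAK and STAT genes changed by small amounts. Of 7 tested, 1, 1, 4, 3, 2 and 2 rose and 0, 0, 2, 2, 0 and 1 fell in the same order. The 2 of 7 and 3 of 7 called in H292 lay near the 22.9% and 43.2% of all genes called there. In H1437 sets 1 to 4, 4.71%, 6.72%, 31.2% and 32.8% of all genes were called. STAT3 rose by 0.80, 0.30 and 0.31 on the log2 scale in H1437 sets 1, 3 and 4, and its values in H292 were -0.04 and -0.08, not called. JAK1, the kinase of the shared receptors, fell by 0.23 in H1437 sets 3 and 4.

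Of 11 STAT3 feedback and target genes, 4, 8, 8, 7, 5 and 6 rose and 0, 0, 0, 0, 2 and 2 fell in the same order, with list medians of 0.76, 1.72, 1.11, 0.95, 0.43 and 0.59 against medians of all tested genes within 0.03 of 0. Of all genes 4.71%, 6.72%, 31.2%, 32.8%, 22.9% and 43.2% were called in these comparisons. SOCS3, the inhibitor that closes the JAK-STAT loop, rose in all 6 sets, by 2.97 ± 0.37, 3.99 ± 0.40, 4.11 ± 0.22, 3.31 ± 0.21, 1.91 ± 0.15 and 3.58 ± 0.10. MCL1, a survival factor, rose in all 6 by 2.01 to 2.43. JUNB rose in H1437 (2.06 to 2.62) and fell in H292 (-0.81 and -0.39), and MYC rose in H292 only with a call (2.41 and 2.36). SOCS3 fell against the stimulus in all 10 comparisons with Tra, a chelator or a knockout extract, from -1.85 ± 0.36 with Aeg-S/L+Tra to -4.04 ± 0.11 with EGTA in H292 set 2. The list's median with EGTA in H292 set 2 was -0.05, with 3 members higher and 4 lower than with Aeg-S/L alone. Of all genes, 44.9% were called in that comparison. Many of these genes also answer to other signals, and STAT3 activity was not measured.

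AP-1 genes, the immediate early targets downstream of ERK and calcium, had the largest medians of the lists described here. Of 9 listed genes (8 tested in H292), 6, 7, 8, 8, 6 and 6 rose and 0, 0, 1, 1, 2 and 1 fell, with list medians of 2.97 to 4.96, where 4.71% to 43.2% of all genes were called. FOS rose by 6.41 to 9.25, FOSB by 7.01 to 9.40, FOSL1 by 2.97 to 4.87 and ATF3 by 4.63 to 8.22 on the log2 scale, each called in all 6 sets. With Tra, 6 of 9 fell against the stimulus in each of the 2 sets, where 5.08% and 1.27% of all genes were called. The log2 values of FOS were -5.04 and -4.23. With the chelators 9 of 9 fell with BAPTA-AM and 8 of 9 with EGTA in H1437 set 3, and 8 and 7 of 8 in H292 set 2. Of all genes, 27.7% and 30.6% were called in these H1437 comparisons and 37.9% and 44.9% in those of H292.

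Epidermal genes known as targets of the IL-20 cytokines were called in part. Of 14 listed, 10 or 11 were tested, and 4, 3, 8, 8, 3 and 5 rose and 0, 0, 0, 0, 1 and 2 fell. All genes were called at 4.71%, 6.72%, 31.2%, 32.8%, 22.9% and 43.2%. The list medians were -0.21, 0.53, 0.54, 1.07, -0.28 and 0.29, below 0 in H1437 set 1 and H292 set 1. The chemokine CXCL8 (7.15 to 8.79), the chemokine CCL20 (5.38 to 11.24) and the wound keratin KRT6B (1.06 to 4.13) rose in all 6 sets. KRT16, the other keratin of hyperproliferative skin, fell in H292 (-1.75 ± 0.23 and -1.77 ± 0.21) and was called higher only in H1437 set 3 (0.65 ± 0.21). S100A8 and S100A9 rose in H1437 sets 3 and 4, by 0.42 and 0.73 and by 0.33 and 0.56, and these 2 genes also stand in the leukocyte marker list. CXCL8 and CCL20 answer to many stimuli, so their place in the list says nothing of which ligand acted.

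**Figure D5:**
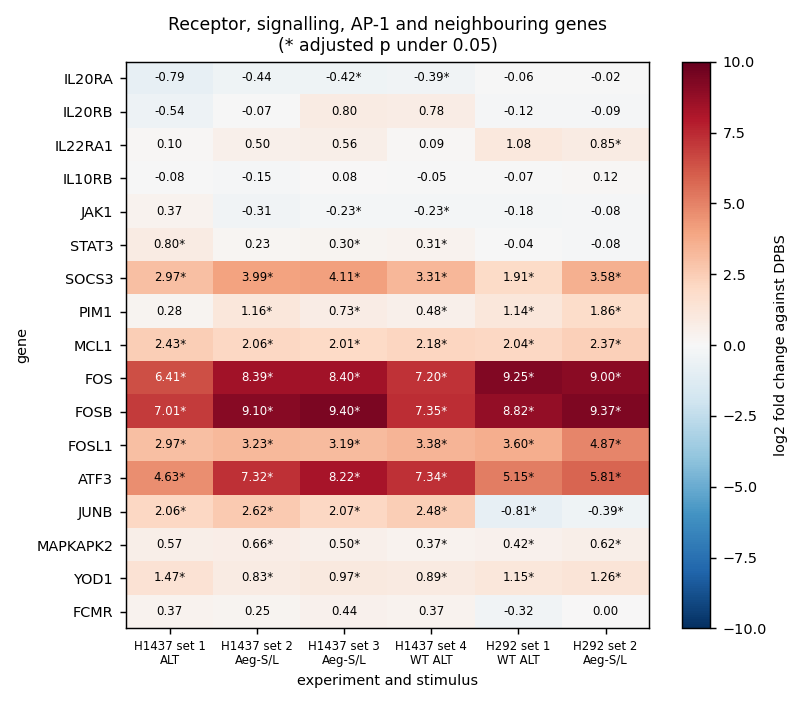
Log2 fold change against DPBS of receptor, signalling, AP-1 and neighbouring genes (rows) in the 6 human stimulus comparisons (columns), as colour and number; an asterisk marks an adjusted p under 0.05 in edgeR's quasi-likelihood test. The 4 receptor chains drawn lie between -0.79 and 1.08, while FOS, FOSB and ATF3 lie between 4.63 and 9.40 and SOCS3 is called in all 6 columns.

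Genes around the cluster were called in part. Of 21 other genes within 250 kb in hg19, 8 or 9 were tested, and 2, 3, 4, 3, 2 and 4 rose and 0, 0, 0, 1, 2 and 2 fell. Of all genes, 4.71%, 6.72%, 31.2%, 32.8%, 22.9% and 43.2% were called in the same order. YOD1, a deubiquitinase, rose in all 6 sets by 0.83 to 1.47. MAPKAPK2, a kinase activated by p38, rose in 5 of 6 sets (0.37 to 0.66). C1orf116, another neighbour, rose in the 4 H1437 sets (1.24 to 2.44) and fell in H292 set 2 (-0.26 ± 0.06). FCMR, the gene nearest to IL24, was called in no set (-0.32 to 0.44). In mouse, 18 to 20 of 24 neighbours were tested. In mouse set 1, 11 were higher and 3 lower, where 58.6% of all genes were called. Aeg-S/L gave 5 and 2 in mouse set 2 (38.8%) and 12 and 2 in Rag2-/-; gc-/- mice (68.1%). WT ALT gave 4 and 2 in mouse set 3 (34.2%). Lysenin, PlyA2EryB and LSL gave 11 and 3, 10 and 3, and 10 and 4 in mouse set 4 (63.6%, 64.7% and 65.8%). In IL-33 KO set 2 they gave 8 and 1, 6 and 3, and 7 and 2 (39.7%, 50.3% and 37.4%). In IL-33 KO set 1, ALT gave 1 and 0 (2.92%) and Aeg-S/L 3 and 0 (10.9%).

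The genes whose pattern was most like that of IL24 were ranked by Pearson r of log2(CPM + 1) after subtraction of the DPBS mean of the same set, over 51 libraries and 12701 genes. Libraries within a set share their control, and the correlation is a description. Among the 8 highest were PRDM1 (0.76), RAP2B (0.74), ODC1 (0.74), TMCC2 (0.74), IL20 (0.74), ENSG00000261553 (0.72) and MAFG (0.71). PRDM1 encodes the transcriptional repressor BLIMP-1 and ODC1 the first enzyme of polyamine synthesis. IL20 was the sixth of 12701 genes, and SOCS3 was in place 16. The ranking depended on the measure and on the line. Of the 8, 1 stayed in the first 8 with a pseudocount of 0.1, 1 with Spearman's rho, 3 with H292 alone and 0 with H1437 alone. In mouse, over 48 libraries and 16592 genes, the highest values were 0.98 for ENSMUSG00000031799 and 0.97 for ENSMUSG00000043091, and Il19 (0.51) and Il10 (0.45) stood in places 4129 and 4651. Of these 2 highest, 1 stayed with a pseudocount of 0.1 and 0 with Spearman's rho.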

How the data were processed

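Per the submitters' processing notes, the authors used HISAT2 2.2.1, SAMtools, featureCounts 2.0.2, DESeq2 1.36.0 and R 4.2.2 with builds hg19 and mm10, and they deposited raw read counts per gene. RNA was extracted with a column kit and libraries were made with NEBNext Ultra RNA, per the labels' protocols. Each set was fitted by itself with edgeR 4.0.16 (filterByExpr, TMM scaling, 1 coefficient per group, quasi-likelihood F test, Benjamini-Hochberg adjustment over all genes that passed the filter). Each SE was derived from the fold change and its F statistic. The 2 lines were compared in a joint fit of H1437 set 3 with H292 set 2 and of H1437 set 4 with H292 set 1. CPM values are counts over all counts of the library. Of the human IDs, 39538 of 57820 matched a name, and of the mouse IDs the 4 members did. The 2 rows of mouse set 4 that carried no gene ID were left out. Some columns of IL-33 KO set 2 and of the Rag2-/-; gc-/- set shared a name and carry no replicate number.

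Members, lists and tests were chosen with earlier results of these data known. Named genes are the members, listed genes and neighbours, and the genes most like IL24 (8 human, 2 mouse) among those with a group mean of at least 1 CPM in both lines; 1 of the 8 is not reported here. No replicate pair looked like a repeat deposit of 1 library (chi-square per degree of freedom at least 2.95). Same-numbered libraries did not deviate together in every pair (r from -0.51 to 0.58), so no replicate block was used. Alternatives were DESeq2 1.42.0, DESeq2 size factors, no low-count filter, the block, each library left out, for the likeness to IL24 a pseudocount of 0.1, Spearman's rho and each line alone, and, chosen after seeing the data, TMM-scaled library sizes for mouse Il24. The fits were tested on simulated counts.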

Additional observations from a re-analysis of the deposited data

Results flagged for a closer look

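The response of IL24 to wild-type extract differed between lines by a direct test: H292 minus H1437 was -2.15 ± 0.29 on the log2 scale (SE, edgeR's quasi-likelihood test, adjusted p = 0.000158). The shift of IL24 when BAPTA-AM was added to Aeg-S/L differed by -2.31 ± 0.30 (adjusted p = 1.05e-05), and the shift with EGTA by -2.75 ± 0.30 (adjusted p = 6.9e-07). For IL20 the shift with EGTA differed by -2.62 ± 0.52 (adjusted p = 0.00123), and the shift with BAPTA-AM by 5.55 ± 1.31 in the other direction (adjusted p = 0.00673). Each pairs 1 experiment in H292 with 1 in H1437, so line and experiment cannot be told apart, and IL20 was at 0 in both H1437 libraries with BAPTA-AM.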

How the results depend on the processing

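With DESeq2 size factors, 90 of 90 results for IL24, IL20 and Il10 kept their direction and side of the threshold. With DESeq2, 4 of 89 such results lost their call: IL20 in H1437 set 2 for Aeg-S/L against Aeg-L (10.68), against DPBS (6.72) and for Aeg-S/L+Tra against Aeg-S/L (-8.20), and IL24 in H1437 set 3 for EGTA against Aeg-S/L (-1.25, adjusted p = 0.0755). Without the low-count filter IL24 with BAPTA-AM against EGTA in H292 set 2 became a call (0.24). With a replicate block, IL24 lost the call for ALT+Tra against ALT (-2.95) and for Aeg-S/L against DPBS in H1437 set 2 (1.82), mouse Il20 lost it for Aeg-S/L in mouse set 2 (7.22), and no other IL24, IL20 or Il10 call changed; same-numbered libraries share only a number. The cause of these changes was not tested.

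With single libraries left out, IL24 ranged from -3.79 to -2.59 for ALT+Tra against ALT. In H1437 set 2 it ranged from 1.64 to 2.02 for Aeg-S/L against DPBS, from 1.87 to 2.06 against Aeg-S, from 1.96 to 2.15 against Aeg-L, from -0.34 to 0.041 for Aeg-S against DPBS and from -0.26 to 0.31 for Aeg-S/L+Tra against DPBS. In H1437 set 3 it ranged from -1.64 to -1.33 with BAPTA-AM and from -1.34 to -1.14 with EGTA against Aeg-S/L. It ranged from -0.32 to 0.31 for aegs KO against DPBS in H1437 set 4, from 0.087 to 0.43 for BAPTA-AM against EGTA in H292 set 2, and from -0.49 to 0.24 for the difference between lines with Aeg-S/L. IL20 ranged from -4.58 to 3.16 for Aeg-S/L+Tra against DPBS, from -5.05 to -4.14 for BAPTA-AM against DPBS in H1437 set 3, from -4.42 to 1.39 for aegl KO against DPBS in H1437 set 4, from -2.41 to -0.81 for EGTA against DPBS and from 0.12 to 1.72 for BAPTA-AM against EGTA in H292 set 2, and from 5.24 to 5.78 for the line difference of the BAPTA-AM shift. Il10 ranged from -0.11 to 6.18 for ALT in IL-33 KO set 1, from 5.19 to 5.31 for Lysenin in IL-33 KO set 2, from -1.46 to 0.46 for Aeg-S in mouse set 2 and from 1.03 to 1.31 for aegl KO in mouse set 3. Il19 with aegs KO against WT ALT in mouse set 3 ranged from -6.54 to 0.39. These fits have 1 library fewer, and a lone library is assumed to vary like the other groups.

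Mouse Il24 kept its direction against DPBS in every stimulated group. Log2 ranges with a library left out were 6.40 to 7.53 in mouse set 1, 7.58 to 8.70 for Aeg-S/L in mouse set 2 (7.62 to 9.31 against Aeg-S, 7.71 to 9.39 against Aeg-L), 5.03 to 7.52 for WT ALT in mouse set 3, 5.06 to 6.51, 5.68 to 7.13 and 5.42 to 6.87 for Lysenin, PlyA2EryB and LSL in mouse set 4, 6.11 to 7.82 and 6.51 to 7.73 for ALT and Aeg-S/L in IL-33 KO set 1, 5.72 to 6.96, 6.25 to 7.39 and 5.26 to 6.40 for Lysenin, PlyA2EryB and LSL in IL-33 KO set 2, and 7.18 to 8.36 in Rag2-/-; gc-/- mice. Against WT ALT they were -8.45 to -5.71 for aegs KO and -8.50 to -5.82 for aegl KO, and for aegs KO against DPBS -3.29 to 0.079. Leaving out a control library also lowers the depth over which the floor is counted. DESeq2 size factors gave 8.76 for Aeg-S/L in mouse set 2 and 5.92, 6.55 and 6.24 in mouse set 4, and TMM-scaled library sizes, chosen after seeing the data, gave 5.91, 6.54 and 6.22 there.

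Counts of called genes moved by over 1.5 times in 16 of 56 comparisons with DESeq2, 19 without the filter, 2 with the block and 114 of 248 with a library left out. Against DPBS, with DESeq2 and then without the filter, H1437 set 1 went from 766 to 1189 and 1153 genes for ALT and from 46 to 316 and 1050 for ALT+Tra, and H1437 set 2 from 1140 to 1924 and 2143 for Aeg-S/L and from 84 to 160 and 306 for Aeg-S/L+Tra. IL-33 KO set 1 went from 530 to 2294 and 2803 for ALT and from 1985 to 4078 and 4648 for Aeg-S/L, and the other way with the block, to 266 and 1074. The aegs KO and aegl KO extracts went from 181 to 339 and 426 and from 128 to 287 and 488 in H1437 set 4, and aegl KO from 20 to 277 and 763 in H292 set 1. ALT+Tra against ALT went from 826 to 1388 and 1864, Aeg-S/L+Tra against Aeg-S/L from 216 to 407 and 447, and Aeg-S/L against Aeg-L in H1437 set 2 from 917 to 1484 and 1613. Where 0 genes were called, no filter gave 278 and 9 for Aeg-S and Aeg-L in H1437 set 2, 775 and 132 in mouse set 2, 97 and 119 for aegs KO and aegl KO in mouse set 3, and 18 for aegs KO in H292 set 1. Depth limits IL10, IL19 and Il20 most, which held 0 counts in most libraries.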
